A study of Arabidopsis thaliana with 16 samples.

Results

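The expression of 10 genes of chlorophyll synthesis was followed. The genes were chosen by locus from 32833 genes listed in the deposited expression tables: HEMA1 (AT1G58290), FLU (AT3G14110), CHLH (AT5G13630), GUN4 (AT3G59400), CHLM (AT4G25080), CRD1 (AT3G56940), PORA (AT5G54190), PORB (AT4G27440), PORC (AT1G03630) and CAO (AT1G44446). The choice was made with earlier results of these data known, so counts of these genes beside the share of all genes are a description. All 10 were listed in both tables, and all 10 passed the filter on low values. RNA was sequenced in 16 Arabidopsis thaliana libraries, 2 per group. The seedling groups, 2 weeks old, were tcx5/6 ddm1 (tcx5-/-tcx6-/-ddm1-/-), tcx5/6 (tcx5-/-tcx6-/-), ddm1 (ddm1-/-) and wild type (WT). The other groups were shoot apical meristem (SAM) of tcx5/6 plants, SAM of WT plants, leaf of tcx5/6 plants and leaf of WT plants, with leaf taken at 1 month and no age stated for SAM. All groups shared growth at 22 °C under 16 h light and 8 h dark, and no treatment is labelled. The study concerns the DREAM complex, to which TCX5 and TCX6 belong and which represses cell division genes, and DDM1, a chromatin remodeller that maintains DNA methylation. The labels name no mutant allele, do not say that replicates were separate cultures, and carry a tissue field that reads seedlings for the leaf and SAM libraries, so tissue was taken from the titles. The p-values therefore reflect library-to-library spread within groups, which may be technical.

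Chlorophyll is made in plastids from glutamate. The committed step makes 5-aminolevulinate (ALA), the precursor of all tetrapyrroles; later the pathway divides, and insertion of magnesium into protoporphyrin leads to chlorophyll while insertion of iron leads to haem. Angiosperms reduce protochlorophyllide to chlorophyllide only in light, through the POR enzymes, and several intermediates are phototoxic, so the genes are kept under light, clock and plastid control. In Arabidopsis PORA is best known from etiolated seedlings, where light shuts it off, PORB is expressed in dark and light, and PORC is expressed in the light.

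Sequences are shown for 4 of the genes, because these hold an evening element or a G-box, motifs known from clock and light control. Each is the stretch just before the annotated start of the gene in TAIR10.1 (RefSeq), 5′ to 3′ on the strand of the gene. None of these windows overlaps another annotated protein-coding gene, and overlap with other kinds of gene was not checked. In the first pair capitals mark the evening element, a motif known from clock genes with evening expression. PORA lies at chr5:21992815-21992999 on the minus strand and PORB at chr4:13725361-13725545 on the plus strand.
PORA: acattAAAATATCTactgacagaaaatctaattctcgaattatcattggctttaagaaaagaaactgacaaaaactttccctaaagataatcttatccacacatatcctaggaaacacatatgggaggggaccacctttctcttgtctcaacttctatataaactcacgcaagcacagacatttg
PORB: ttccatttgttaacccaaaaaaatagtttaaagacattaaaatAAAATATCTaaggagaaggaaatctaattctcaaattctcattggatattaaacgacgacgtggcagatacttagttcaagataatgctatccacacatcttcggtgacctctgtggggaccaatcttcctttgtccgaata
In the second pair capitals mark the G-box, bound by light-signalling bZIP and bHLH factors. CAO lies at chr1:16851272-16851456 on the minus strand and CRD1 at chr3:21076320-21076504 on the plus strand.
CAO: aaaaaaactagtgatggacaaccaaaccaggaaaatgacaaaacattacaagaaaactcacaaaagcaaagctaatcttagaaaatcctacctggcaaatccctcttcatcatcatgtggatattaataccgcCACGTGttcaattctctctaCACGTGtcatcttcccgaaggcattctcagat
CRD1: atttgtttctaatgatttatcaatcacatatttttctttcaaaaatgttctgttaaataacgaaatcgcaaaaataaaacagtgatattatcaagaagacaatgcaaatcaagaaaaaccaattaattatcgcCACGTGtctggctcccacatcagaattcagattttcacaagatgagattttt

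Values are the authors' library-size-adjusted read counts per gene, called signal here. They are not divided by gene length, so levels of different genes are compared only as signal per kb of exon in each 1e+06 of library total, called scaled signal. Log2 changes are differences of log2(signal + 1) from limma-trend, and p-values carry a Benjamini-Hochberg adjustment for every gene tested in a table. The threshold for a call was an adjusted p of 0.05.

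Total signal per library, in units of 1e+06, was 31.13 to 38.82 in seedlings and 45.35 to 59.33 in SAM or leaf, and since it was scaled by the authors it does not give the sequencing depth. By their low values the seedling libraries were of 2 kinds. Values from 0.5 up to 1 signal were present for 159 to 284 genes in the tcx5/6 ddm1 and ddm1 libraries, against 0 to 6 genes in the tcx5/6 and WT libraries. The SAM libraries had 228 to 257 such genes and the leaf libraries 0 to 4. The kinds are defined by these low values alone. No batch is labelled, and what lies behind the kinds was not tested. Any difference between seedlings with and without the ddm1 mutation, or between SAM and leaf, cannot be told apart from this difference in library kind. All libraries in a comparison of tcx5/6 ddm1 with ddm1 seedlings, of tcx5/6 with WT seedlings, or of genotypes within SAM or leaf, were of one kind. DDM1 itself had 568.8 and 654.4 signal in tcx5/6 ddm1, 1925 and 2061 in tcx5/6 and 118.8 and 145.2 in ddm1, against 709.3 and 647.9 in WT seedlings. TCX6 had 782.7 and 759.7 signal in tcx5/6 seedlings, against 162.6 and 152.1 in WT, and TCX5 had 240.2 and 267.5, against 486 and 496.7. In tcx5/6 ddm1 TCX6 had 731.1 and 833.8 and TCX5 had 250.2 and 173.6, against 97.35 and 143.1 for TCX6 and 684 and 576 for TCX5 in ddm1. TCX6 likewise had 1870 and 1849 in tcx5/6 SAM, against 517.1 and 391.1 in WT SAM, and 1257 and 1007 in tcx5/6 leaf, against 251 and 332.2 in WT leaf. TCX5 had 489.7 and 552.5 in tcx5/6 SAM, against 972.2 and 988.8 in WT SAM, and 498.1 and 463.6 in tcx5/6 leaf, against 1068 and 1207 in WT leaf. TCX6 was thus higher, and TCX5 lower, in every pair of groups in which its mutation was compared. A sum over a whole gene does not show which part of the transcript was read, so these values do not check the labels. Seed storage genes stood apart in 1 ddm1 library, with a sum of 1485 signal over CRA1 and CRC in replicate 1, against 25.23 in replicate 2.

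In WT seedlings the panel spanned a wide range of levels. CRD1, the diiron subunit of the cyclase that closes the fifth ring of chlorophyll, was highest at 1670 ± 76 scaled signal (SD, n = 2). CHLH, the large magnesium chelatase subunit, followed at 732 ± 24.8. PORB at 271 ± 30.4 did not differ beyond the spread from CHLM at 263 ± 4.63 or from HEMA1 at 232 ± 24. CAO at 181 ± 3.91, PORC at 144 ± 2.3 and FLU at 103 ± 1.01 came next, and PORA had 4.99 ± 0.278. GUN4 was lowest at 0.273 ± 0.0697. In both groups that carry ddm1 PORB took first place, with 875 ± 40 scaled signal in tcx5/6 ddm1 and 1450 ± 81.4 in ddm1, and CRD1 came second with 430 ± 59.9 in tcx5/6 ddm1 and 704 ± 36.9 in ddm1.

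GUN4, a porphyrin-binding activator of magnesium chelatase, could not be read reliably from these tables. It had 7.4 and 2.243 signal in tcx5/6 ddm1, 7.107 and 10.35 in tcx5/6 and 15.49 and 5.539 in ddm1, against 13.93 and 9.88 in WT seedlings. In leaf it had 2.657 and 5.5 in tcx5/6, against 0.03328 and 4.274 in WT. Of the 1296 exonic bases of GUN4 (chr3:21948501-21949796, minus strand), 946 lie within exons of GCN2 on the opposite strand, or 73%. The counting rule for reads in overlapping genes is not given here, and the part of the overlap in these low values was not tested. GUN4 was not called in any comparison. Among the other 9 genes the shared part was largest for CRD1, at 12.9%, and 4.33% or less for the others.

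**Figure D1:**
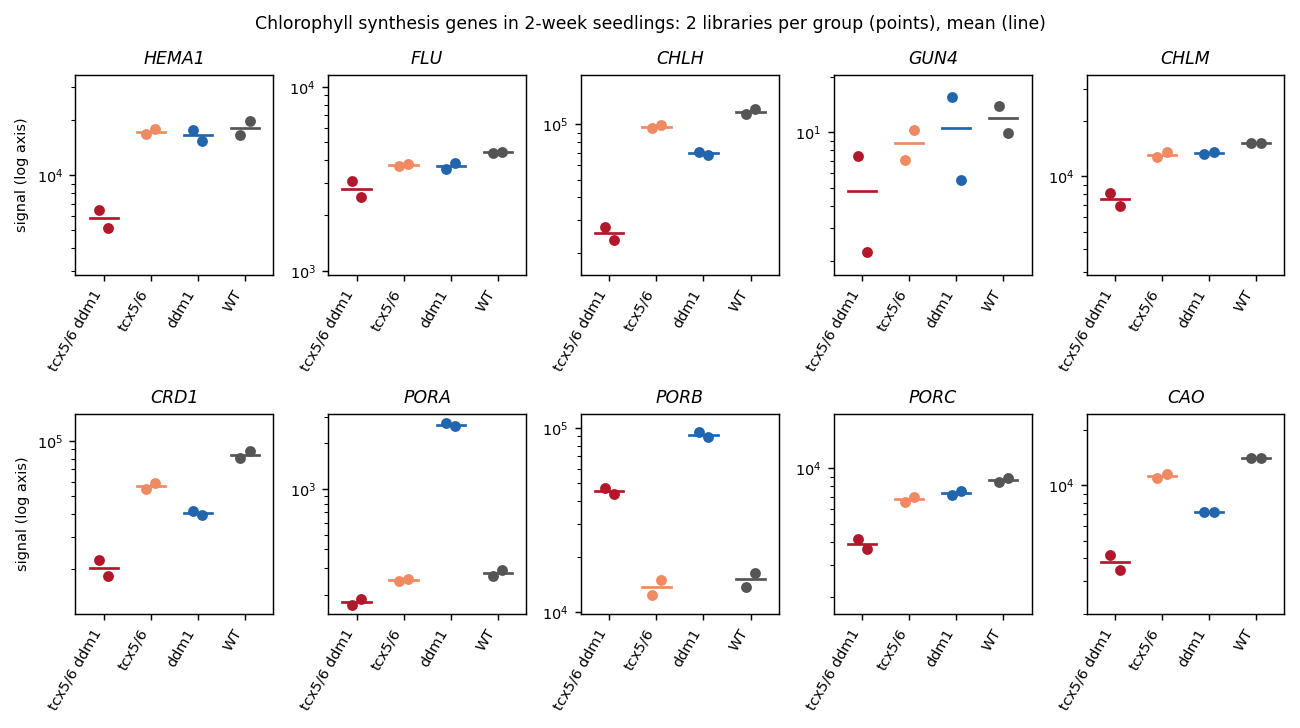
Signal of each of the 10 genes in the 2 libraries (points) and their mean (line) of tcx5/6 ddm1, tcx5/6, ddm1 and WT seedlings, on log axes whose range differs between panels. PORA and PORB stand high in ddm1, while HEMA1, CHLH, CHLM, CRD1, PORC and CAO are lowest in tcx5/6 ddm1.

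In seedlings without the ddm1 mutation, the tcx5/6 mutations came with small reductions, called in 2 genes. PORC, the light-grown POR, had 6588 and 6991 signal in tcx5/6 seedlings, against 8456 and 8836 in WT. CRD1 had 54500 and 59350 in tcx5/6, against 80580 and 87780 in WT. For both genes both tcx5/6 libraries lay below both WT libraries. The same held for PORA, CHLH, CAO, CHLM and FLU, which were not called. The share of all genes without overlap between groups was not computed, here or in the comparisons below. PORC fell by 0.35 ± 0.08 on the log2 scale (SE, adjusted p = 0.026) and CRD1 by 0.56 ± 0.12 (adjusted p = 0.021). These 2 of the 10 genes were called, both lower, while 11.6% of all genes tested were called, 7.26% higher and 4.35% lower. Neither call held when any 1 of the 4 libraries was left out, with adjusted p of 0.098 to 0.2 for PORC and 0.083 to 0.18 for CRD1. The remaining 8 had log2 changes from -0.41 to -0.07, and the median over the panel was -0.25, against 0.00 over all genes. None of the 9 other magnesium branch genes was called (median -0.22). Among them CHLP, the geranylgeranyl reductase that makes the phytol tail, had the smallest p, with a log2 change of -0.35 (adjusted p = 0.089). Of 15 earlier tetrapyrrole enzymes 2 were higher and 3 lower; HEMA3, a glutamyl-tRNA reductase paralogue of HEMA1, rose by 3.31 (adjusted p = 7.5e-05), and HEMA2 rose by 0.53. Of 14 light and plastid regulators, GLK2 (-0.51) and GLK1 (-0.38) were lower, both activators of photosynthesis genes.

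The same pair of mutations was followed by larger reductions in seedlings that also carried ddm1. The number of genes called depended on the fit. With tcx5/6 and WT seedlings fitted alone, 6 of the 10 genes were called between them, against 2, and 6508 of all genes, against 2905. Compared with ddm1, 9 of the 10 genes were lower in tcx5/6 ddm1 and none was higher; 39.3% of all genes were called in this comparison, 17.7% higher and 21.6% lower. HEMA1 (chr1:21623700-21626402), whose enzyme makes the first committed intermediate of ALA, had 6495 and 5173 signal in tcx5/6 ddm1, against 17630 and 15290 in ddm1. CHLH (chr5:4387307-4392429) had 27680 and 23340 in tcx5/6 ddm1, against 70800 and 67730 in ddm1. Neither gene overlapped between the groups, and HEMA1 fell by 1.5 ± 0.13 (2.83-fold lower, adjusted p = 9.1e-05) and CHLH by 1.45 ± 0.12 (2.72-fold lower, adjusted p = 6.9e-05).

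Genes that act farther along the magnesium branch were lower too. CHLM (chr4:12876822-12878703), the methyltransferase that acts after magnesium insertion, had 8130 and 6892 signal in tcx5/6 ddm1, against 13140 and 13500 in ddm1, a log2 change of -0.83 ± 0.09. CRD1 (chr3:21076505-21078443) had 22490 and 18300 in tcx5/6 ddm1, against 41660 and 39280 in ddm1, a change of -1.0 ± 0.12. CAO (chr1:16848308-16851271), the oxygenase that turns chlorophyll a into chlorophyll b, had 4194 and 3455 in tcx5/6 ddm1, against 7204 and 7152 in ddm1, a change of -0.91 ± 0.09. In each of the 3 the tcx5/6 ddm1 libraries were the low ones, with adjusted p of 0.00021 for CHLM, 0.00044 for CRD1 and 0.00017 for CAO. FLU (chr3:4676118-4677689), a negative regulator of ALA synthesis that acts on the HEMA1 enzyme, changed least of the 9. It had 3082 and 2522 signal in tcx5/6 ddm1, against 3591 and 3872 in ddm1, a change of -0.42 ± 0.09 (adjusted p = 0.0087). Without ddm1 replicate 2 the FLU change was -0.37 and was not called (adjusted p = 0.056).

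PORA (chr5:21990864-21992814) changed most. It had 171.7 and 186.5 signal in tcx5/6 ddm1, against 2734 and 2602 in ddm1. The groups lay far apart, and the change was -3.89 ± 0.11 (14.8-fold lower, adjusted p = 2.6e-06). PORB (chr4:13725546-13727440) had 47250 and 43920 in tcx5/6 ddm1, against 94700 and 88830 in ddm1, a fall of 1.01 ± 0.12. PORC (chr1:907523-909650) had 4153 and 3627 in tcx5/6 ddm1, against 7174 and 7505 in ddm1, a fall of 0.92 ± 0.08.

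Whether the effect of the tcx5/6 mutations differed with ddm1 was tested by the interaction. This is the tcx5/6 change in ddm1 plants minus the change in plants without the ddm1 mutation. Libraries with and without ddm1 also differed in kind. A kind difference of equal log2 size with and without the tcx5/6 mutations cancels in the interaction. Any part of it that varied with tcx5/6 cannot be told apart from ddm1. The interaction was called for 7 of the 10 genes, all negative, while 14.5% of all genes were called and 9.51% were called negative. PORA had the largest interaction at -3.75 ± 0.15 (adjusted p = 3e-05), then HEMA1 at -1.43 ± 0.18 (adjusted p = 0.0026) and CHLH at -1.17 ± 0.17 (adjusted p = 0.004). PORB at -0.87, CHLM at -0.62, CAO at -0.59 and PORC at -0.57 were the other 4. CRD1 (-0.43, adjusted p = 0.13), FLU (-0.19, adjusted p = 0.37) and GUN4 (-0.58, adjusted p = 0.72) were not called. The count was 3 without tcx5/6 replicate 2, 3 without WT replicate 1 and 4 without WT replicate 2; PORA, HEMA1 and CHLH were called in each of the 8 fits that left out 1 library, and the CAO call was lost in 5.

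Other genes of the pathway were lower in the same libraries. Of the 9 other magnesium branch genes 5 were lower in tcx5/6 ddm1 than in ddm1 and none was higher (median -0.32, against -0.02 over all genes). CHLP fell by 1.21 (adjusted p = 0.00014), LIL3:2, a light-harvesting-like partner of that reductase, by 0.69 (adjusted p = 0.00022), and CHLD, another chelatase subunit, by 0.61. Of the 15 earlier enzymes 9 were lower and 1, HEMA3 (2.1), was higher. Among all genes tested, 17.7% were called higher in this comparison and 21.6% lower. In the haem and bilin branch UPM1 and FC1 were higher and FC2, HO4 and HY1 lower among 8 genes. The nuclear mesophyll markers RBCS1A, RCA, CAB1, LHCB2.1 and CA1 summed to 867900 and 722800 signal in tcx5/6 ddm1, against 1810000 and 1777000 in ddm1. None of these 5 markers was at 0, and their part in the falls of the panel was not tested. In bulk tissue, fewer green cells and less RNA per green cell cannot be told apart.

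**Figure D2:**
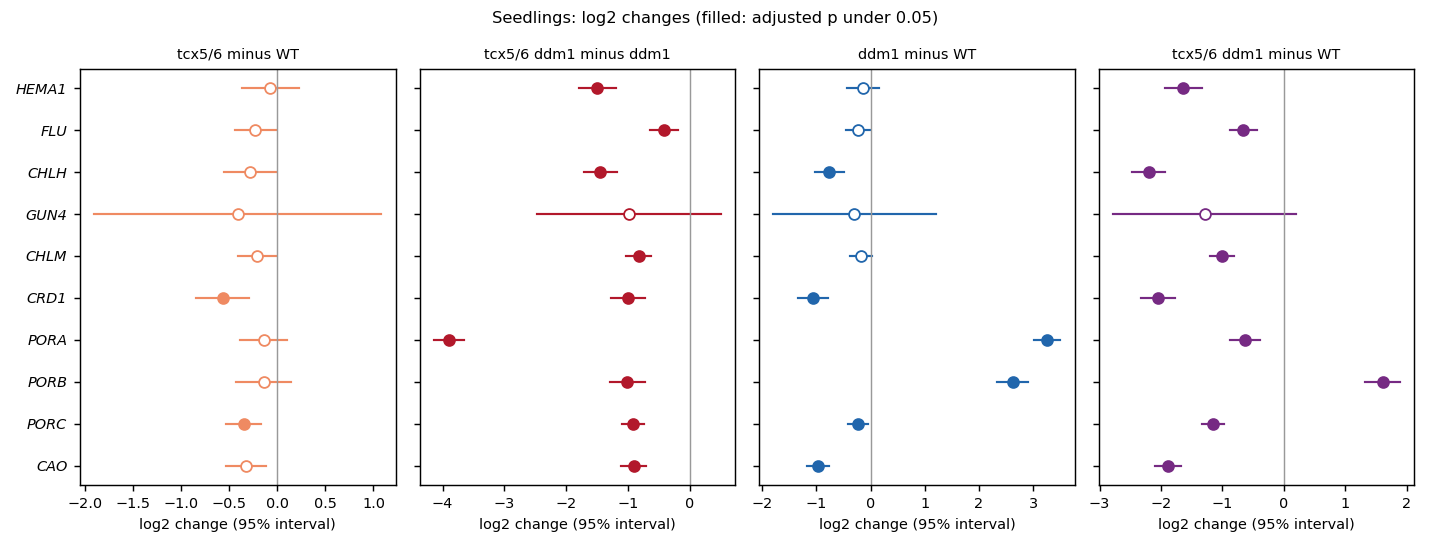
Log2 change with its 95% interval for each gene in 4 seedling comparisons, with filled points at an adjusted p under 0.05 and a separate horizontal range in each panel. The intervals of 9 genes for tcx5/6 ddm1 minus ddm1 lie below 0, PORA at -3.89, while PORA (3.25) and PORB (2.62) lie far above 0 in ddm1 minus WT.

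The ddm1 seedlings differed from WT in opposite ways within the panel. PORA had 2734 and 2602 signal in ddm1, against 264.9 and 292.8 in WT. PORB had 94700 and 88830 in ddm1, against 13660 and 16360 in WT. Both ddm1 libraries were far above both WT libraries, and PORA rose by 3.25 ± 0.11 (9.55-fold, adjusted p = 3.5e-07) and PORB by 2.62 ± 0.12 (6.13-fold, adjusted p = 1.6e-06). The genes that were lower numbered 4: CRD1 by 1.06 ± 0.12, CAO by 0.97 ± 0.09, CHLH by 0.76 ± 0.12 and PORC by 0.24 ± 0.08. CHLH had 70800 and 67730 signal in ddm1, against 113100 and 121300 in WT, and CAO had 7204 and 7152, against 14160 and 14030. The panel thus had 2 genes higher and 4 lower, while 26.3% of all genes were called higher and 23.3% lower, 49.6% in all, a share near that of the panel. The ddm1 and WT libraries are of different kinds, so these changes cannot be told apart from that difference. The PORC call did not hold when any 1 of the 4 libraries was left out. HEMA1 overlapped between the groups, with 17630 and 15290 in ddm1, against 16580 and 19620 in WT, and a change of -0.14 (95% interval -0.43 to 0.16). CHLM (-0.18) and FLU (-0.24) were not called. The mesophyll markers summed to 1810000 and 1777000 signal in ddm1, against 1476000 and 1536000 in WT, with 1 of 5 higher (CAB1 at 1.24) and 3 lower (CA1 at -1.59, RCA at -1.35 and LHCB2.1 at -0.41). The root markers PYK10, SCR, SHR and PLT1 summed to 31390 and 28610 in ddm1, against 44020 and 40170 in WT, with 3 of 4 lower. None of these markers was at 0, and their part in the changes of the panel was not tested.

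Against the same WT libraries, tcx5/6 ddm1 had 1 gene of the panel higher and 8 lower, while 29.5% of all genes were called higher and 26.4% lower, 55.8% in all. PORB was the gene that was higher, by 1.61 ± 0.12 (3.05-fold, adjusted p = 1.4e-05). CHLH fell by 2.20 ± 0.12 (4.61-fold, adjusted p = 2.3e-06), CRD1 by 2.05 ± 0.12, CAO by 1.89 ± 0.09, HEMA1 by 1.64 ± 0.13, PORC by 1.16 ± 0.08 and CHLM by 1.01 ± 0.09. FLU fell by 0.66 ± 0.09 and PORA by 0.64 ± 0.11, with PORA at 171.7 and 186.5 signal in tcx5/6 ddm1, against 264.9 and 292.8 in WT. All 9 other magnesium branch genes were lower too (median -0.77, against 0.02 over all genes), among them DVR, the divinyl reductase, at -1.38 and CHLI1, the chelatase ATPase subunit, at -1.28. Compared with tcx5/6 instead, tcx5/6 ddm1 had PORB higher by 1.75 ± 0.12 and 8 genes lower, while 25.7% of all genes were called higher and 26.0% lower, 51.7% in all. CHLH had the largest fall there, of 1.93 ± 0.12. The mesophyll markers summed to 867900 and 722800 signal in tcx5/6 ddm1 and 1176000 and 1255000 in tcx5/6, against 1476000 and 1536000 in WT. Against WT 4 of these 5 markers were lower in tcx5/6 ddm1 (median -1.76), CA1 at -2.94, RCA at -2.33 and LHCB2.1 at -1.76 among them, and against tcx5/6 3 were lower. The root markers summed to 18540 and 25300 in tcx5/6 ddm1 and 36360 and 34490 in tcx5/6, against 44020 and 40170 in WT, and all 4 were lower in tcx5/6 ddm1 than in either. No marker of these 2 lists was at 0, and their part in the falls was not tested.

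Genes of the circadian clock differed along with the library kind. LHY, a morning MYB factor that represses evening genes, had 157.2 and 164.4 signal in tcx5/6 ddm1, 3217 and 2979 in tcx5/6 and 116.7 and 92.12 in ddm1, against 2761 and 2727 in WT. LUX, an evening complex factor, had 2309 and 2576 signal in tcx5/6 ddm1, 420.3 and 422.4 in tcx5/6 and 3867 and 3686 in ddm1, against 320.7 and 306.7 in WT. Morning LHY was low and evening LUX high in the same 4 libraries in which PORB was high. PORA did not follow these libraries. It had 2734 and 2602 signal in ddm1 but 171.7 and 186.5 in tcx5/6 ddm1, against 264.9 and 292.8 in WT. All 10 clock genes were called between ddm1 and WT, 6 higher (ELF4 at 5.12, PRR5 at 4.86 and LUX at 3.59 among them) and 4 lower (LHY at -4.71, RVE8 at -3.37, CCA1 at -3.01 and PRR9 at -2.70). Of all genes, 49.6% were called in this comparison, 26.3% higher and 23.3% lower. The labels do not state the hour of harvest, and the part of the clock state or of harvest time in the PORA and PORB values was not tested. Regulators of chloroplast genes differed too: CGA1 (-3.36), HYH (-3.83) and GLK2 (-1.86) were lower in ddm1 than in WT, with 8 of 14 light and plastid regulators lower and 2 higher (PIF4 at 0.58 and PIF3 at 0.35). Between tcx5/6 ddm1 and ddm1, which share the library kind, 1 clock gene was higher (LHY at 0.63) and 7 were lower, among them LUX at -0.63 and PRR9 at -1.31. Of all genes, 17.7% were called higher there and 21.6% lower. The part of the clock genes in the falls of the panel there was not tested.

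Motifs were searched on both strands in the window from 250 bases before to 50 bases after the start of each of 27437 genes, with overlaps between different motifs allowed. The evening element AAAATATCT was present in PORA, first base at -180, and in PORB, first base at -142, in no other gene of the panel, and in 2.82% of all windows. The G-box CACGTG was present in CAO, at -52 and -32, and in CRD1, at -52, and in 7.68% of all windows. The CCA1 site AAAAATCT was present in GUN4, CAO, CRD1 and FLU and in 7.88% of windows, and the I-box GATAAG in PORA, GUN4 and CAO and in 14.6%. TTTGAA, the core of the cell cycle homology element known from DREAM targets, was present in HEMA1, GUN4, CRD1 and FLU and in 43.7% of windows. Neither its variant TTCGAA (9.06% of windows) nor the E2F site TTTCCCGC (0.798%) was found in the panel. The longest run that the PORA and PORB windows share is aaatctaattctc, from -162 in PORA and -123 in PORB. It was looked for after their values were seen. It occurs in 3 of the 27437 windows, which include PORA and PORB by this choice, so the count tests nothing. A match is a stretch of letters, not a binding site, and no binding was measured here.

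The makeup of the POR transcripts followed the same division of libraries. PORB made up 92.2% and 92.6% of POR signal per kb in tcx5/6 ddm1, 66.1% and 69.1% in tcx5/6 and 91.1% and 90.4% in ddm1, against 63% and 66.1% in WT seedlings. PORC made up 7.44% and 7.02% in tcx5/6 ddm1, 32.6% and 29.7% in tcx5/6 and 6.34% and 7.01% in ddm1, against 35.8% and 32.8% in WT. PORA stayed at or below 2.62% in all 8 seedling libraries, even in ddm1. Summed over the panel, signal in each 1e+06 of library total was 3880 and 3400 in tcx5/6 ddm1, 6834 and 7131 in tcx5/6 and 6766 and 6331 in ddm1, against 7997 and 8454 in WT. The tcx5/6 ddm1 libraries were the lowest by this sum as well.

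**Figure D3:**
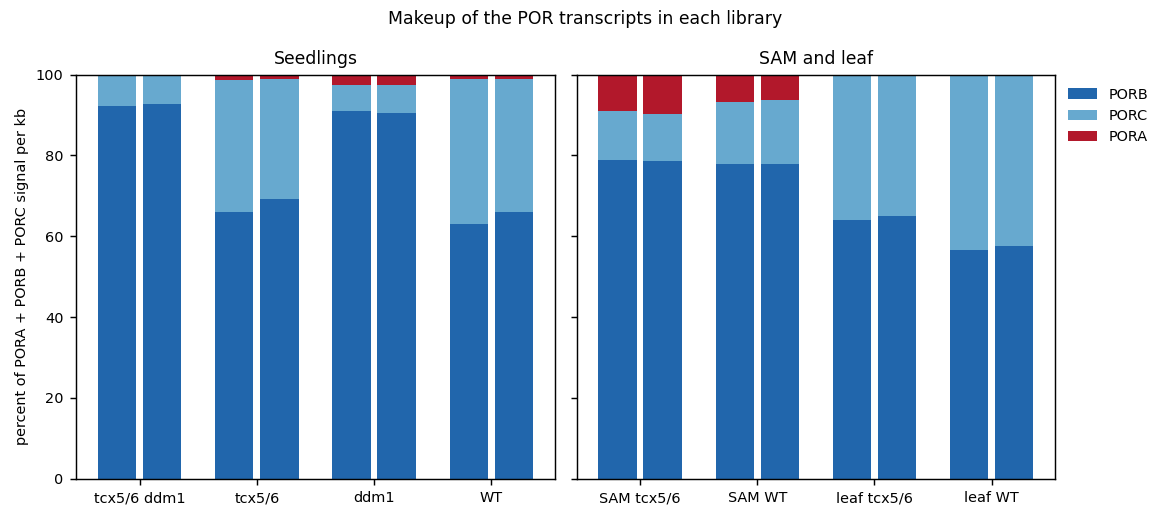
Share of PORA, PORB and PORC in the POR signal per kb of exon, in percent, with 1 bar per library in seedlings (left) and in SAM and leaf (right). PORB takes over 90% of the POR signal in tcx5/6 ddm1 and ddm1 seedlings and 56.5% to 78.9% in SAM and leaf, where PORA is visible only in SAM.

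Across the 8 seedling libraries, HEMA1, CHLH, CHLM, CRD1, PORC, CAO and FLU varied together, with Pearson r of log2(signal + 1) of 0.90 to 0.99 between any 2 of them. PORB had r of -0.31 with PORC and -0.68 with CAO, and 0.70 with PORA. In the 8 SAM and leaf libraries PORB and CHLH had an r of 1.00 and PORA and PORC 0.90. These correlations rest on 4 groups of 2 libraries in each table, so they describe how groups differed. By the smaller of the correlations in the 2 tables, over 16222 genes, the genes most like PORA were GH9A1 (0.983 in seedlings and 0.991 in SAM and leaf), SLP2 (0.976 and 0.996) and AT1G17200 (0.972 and 0.971). Those most like CHLH were AT4G21650 (0.992 and 0.996), BZIP9 (0.994 and 0.990) and CER2 (0.988 and 0.990).

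In the second table the libraries labelled SAM expressed STM, a meristem identity gene, at 1510 to 1713 signal, while CLV3 was at 0 in WT SAM. STM, WUS and CLV3 were at 0 in all leaf libraries. The flower genes LFY, AP1, AP3, PI and AG summed to 8030 and 8032 signal in tcx5/6 SAM and 11040 and 10480 in WT SAM, against 88.34 and 65.1 in tcx5/6 leaf and 40.5 and 41.5 in WT leaf. The mesophyll markers summed to 636500 and 651000 in tcx5/6 SAM and 973400 and 989700 in WT SAM, against 426500 and 413900 in tcx5/6 leaf and 303800 and 297800 in WT leaf. SAM libraries thus held more of these green tissue transcripts than leaf libraries. The part of floral and green tissue in the values below was not tested.

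The panel was higher in SAM than in leaf. In WT plants 9 of the 10 genes were higher in SAM and none was lower, while 43.2% of all genes were called higher and 35.6% lower, 78.8% in all, and the median of all genes was 0.21. With most genes called, the panel's count is near this background when calls in either direction are counted. All the panel's calls were higher, while 43.2% of all genes were called higher. Library kind and tissue cannot be told apart. PORA had 4538 and 4421 signal in WT SAM, against 14.92 and 15.29 in WT leaf. CHLH had 36510 and 36560 in WT SAM, against 3994 and 4209 in WT leaf. PORB had 52610 and 53320 in WT SAM, against 6394 and 6818 in WT leaf. None of the 3 overlapped between tissues, and the log2 changes were 8.12 ± 0.15 for PORA (278-fold, adjusted p = 7.8e-09), 3.16 ± 0.09 for CHLH and 3.0 ± 0.04 for PORB. The other called genes rose by 1.75 (CHLM), 1.54 (CRD1), 1.15 (HEMA1), 1.12 (FLU), 1.09 (PORC) and 0.56 (CAO). CAO had 2293 and 2331 in WT SAM, against 1602 and 1538 in WT leaf, the smallest of these differences.

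In tcx5/6 plants the same 9 genes were called higher in SAM than in leaf, while 43.1% of all genes were called higher and 35.2% lower, 78.2% in all (median of all genes 0.20). PORA had 5408 and 5782 signal in tcx5/6 SAM, against 5.083 and 6.649 in tcx5/6 leaf, a change of 9.68 ± 0.15. All 9 other magnesium branch genes were higher in SAM in both genotypes, with DVR at 4.04 in WT and 3.40 in tcx5/6 plants. The genes of the chlorophyll b cycle and breakdown went the other way: of 11 genes 10 were lower in SAM and 1, SGRL, was higher, in WT as in tcx5/6 plants. In WT the log2 changes were -3.17 for PPH, which removes phytol from pheophytin, -3.93 for NYE1, which takes the magnesium out, and -2.99 for PAO, which opens the ring. Of 8 genes of the haem and bilin branch 3 were higher in WT SAM and 5 lower. The higher ones were HO2 (2.07), HY2 (0.97) and FC2 (0.30), a ferrochelatase, and the lower ones included FC1, the other ferrochelatase (-3.19), HO3, a haem oxygenase (-3.37), and HY1 (-1.80).

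**Figure D4:**
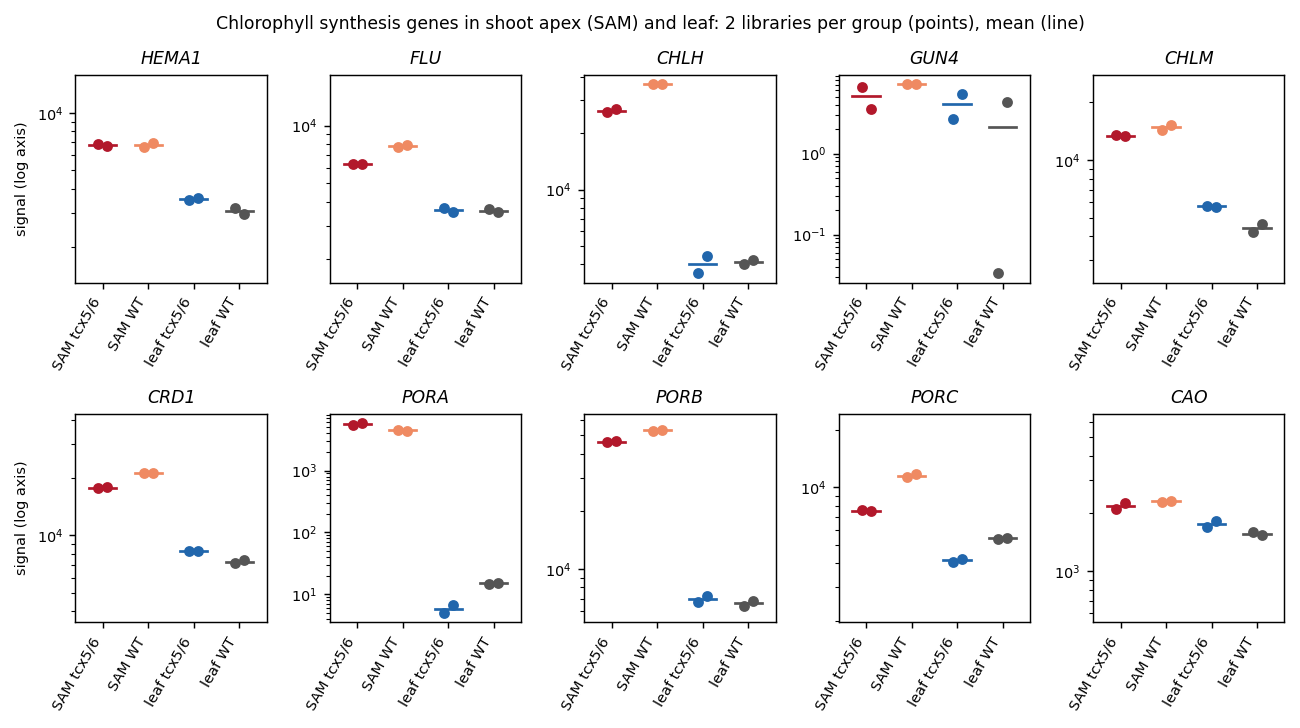
Signal of each of the 10 genes in the 2 libraries (points) and their mean (line) of tcx5/6 SAM, WT SAM, tcx5/6 leaf and WT leaf, on log axes whose range differs between panels. All genes but GUN4 are higher in SAM than in leaf in both genotypes, PORA by 278-fold in WT, and GUN4 is near 0 throughout.

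Between genotypes the panel changed little within leaf. HEMA1 had 3490 and 3597 signal in tcx5/6 leaf, against 3195 and 2952 in WT leaf. CHLM had 5740 and 5695 in tcx5/6 leaf, against 4196 and 4637 in WT leaf. CRD1 had 8216 and 8238 in tcx5/6 leaf, against 7152 and 7369 in WT leaf. In all 3 both tcx5/6 libraries were the higher ones, with changes of 0.21 ± 0.05 (HEMA1, adjusted p = 0.013), 0.37 ± 0.05 (CHLM, adjusted p = 0.0014) and 0.18 ± 0.03 (CRD1, adjusted p = 0.0024). PORC had 4081 and 4218 in tcx5/6 leaf, against 5349 and 5434 in WT leaf, a fall of 0.38 ± 0.03 (adjusted p = 0.00021). PORA fell by 1.24 ± 0.15 (adjusted p = 0.00068) at very low levels, 5.083 and 6.649 signal in tcx5/6 leaf, against 14.92 and 15.29 in WT leaf, and was not called when leaf was fitted alone (adjusted p = 0.09). Thus 3 of the 10 were higher and 2 lower, while 21.3% of all genes were called higher and 21.4% lower, 42.6% in all, which is near the panel's share. Without WT replicate 2 the HEMA1 change was 0.15 and was not called. PORB, CHLH and FLU overlapped between the genotypes.

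The chlorophyll breakdown genes PPH (-0.58), NYC1 (-0.58) and PAO (-0.57) were lower in tcx5/6 leaf and CLH1, a chlorophyllase, was higher (0.88); 5 of the 11 genes of this list were lower and 1 higher. Of the 15 earlier enzymes 14 were tested, of which 7 were higher and 1 lower, HEMB1 at 0.46 among the higher ones. Among all genes tested in leaf, 21.3% were called higher and 21.4% lower. The mesophyll markers CA1 (1.06), CAB1 (0.71) and LHCB2.1 (0.55) were higher in tcx5/6 leaf, and their part in the panel's values was not tested.

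In SAM, 5 genes of the panel were lower with the tcx5/6 mutations and 0 were higher, while 14.5% of all genes were called lower and 15.6% higher, 30.1% in all. PORC had 7579 and 7490 signal in tcx5/6 SAM, against 11330 and 11670 in WT SAM, a fall of 0.61 ± 0.03 (adjusted p = 3.9e-05). CHLH had 25980 and 26770 in tcx5/6 SAM, against 36510 and 36560 in WT SAM, a fall of 0.47 ± 0.09 (adjusted p = 0.007). FLU had 6290 and 6327 in tcx5/6 SAM, against 7738 and 7926 in WT SAM, a fall of 0.31 ± 0.04 (adjusted p = 0.001). All 3 lay below WT in both libraries, as did PORB and CRD1 and the uncalled CAO, CHLM and GUN4. GUN4 had at most 7.213 signal in SAM and could not be read reliably. How many of all genes were without overlap here was not computed. CRD1 fell by 0.25 ± 0.03 and PORB by 0.20 ± 0.04 (45930 and 46330 in tcx5/6 SAM, against 52610 and 53320 in WT SAM). Leaving out 1 library left 3 or 4 genes called: the PORB call was lost in all 4 such fits and the CHLH call in 3. PORA had 5408 and 5782 in tcx5/6 SAM, against 4538 and 4421 in WT SAM, with a change of 0.32 (95% interval -0.03 to 0.67) that was not called (adjusted p = 0.16). With SAM fitted alone the same change was called (adjusted p = 0.00017). HEMA1 overlapped between genotypes, with a change of 0.00 (95% interval -0.11 to 0.12).

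All 9 other magnesium branch genes were lower in tcx5/6 SAM (median -0.31, against -0.00 over all genes), with DVR at -0.56, CHLI1 at -0.34 and CHLP at -0.34. HEMA3 rose by 4.55 and HEMA2 by 0.34, while GSA1, the aminomutase that completes ALA, fell by 0.33. Of the 14 earlier enzymes tested 8 were lower and 2 higher. Among all genes tested in SAM, 14.5% were called lower and 15.6% higher. CA1 (-1.84), RCA (-0.95) and RBCS1A (-0.75) of the mesophyll markers fell in the same libraries, and their part was not tested.

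**Figure D5:**
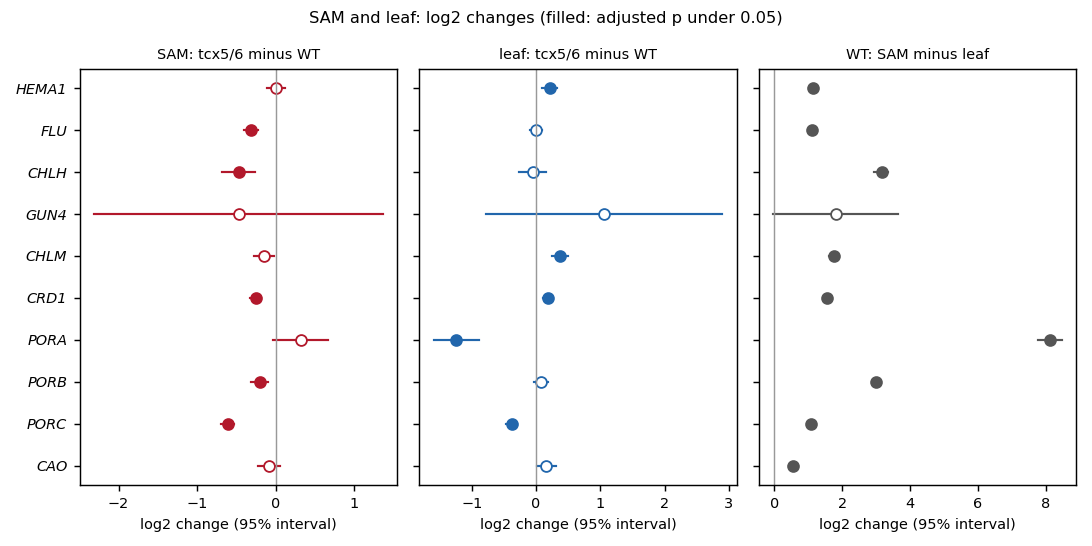
Log2 change with its 95% interval for each gene in SAM and in leaf (tcx5/6 minus WT) and between tissues (WT SAM minus WT leaf), with filled points at an adjusted p under 0.05 and a separate horizontal range in each panel. PORC is lower in tcx5/6 in both tissues (-0.61 in SAM and -0.38 in leaf), and all points lie above 0 in the tissue comparison.

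The tcx5/6 change in SAM minus that in leaf was called for 7 of the 10 genes, 1 positive and 6 negative, while 14.8% of all genes were called positive and 15.9% negative, 30.7% in all. PORA was the positive one, at 1.56 ± 0.21 (adjusted p = 0.0024). CHLM at -0.52, CRD1 at -0.43, CHLH at -0.42, FLU at -0.32, PORB at -0.27 and PORC at -0.23 were negative. CRD1 had the smallest adjusted p, 0.00058. The CHLH call was lost with a pseudocount of 0.1 (adjusted p = 0.055) and in 6 of 8 fits that left out 1 library, and the PORB call in 5 of 8. Among the other magnesium branch genes 8 of 9 were negative and none positive, CHLI1 at -0.57 and DVR at -0.64 with the smallest p. PORB made up 78.9% and 78.6% of POR signal per kb in tcx5/6 SAM, 77.9% and 77.9% in WT SAM and 64.1% and 64.9% in tcx5/6 leaf, against 56.5% and 57.7% in WT leaf. PORA, at 9.18% and 9.7% in tcx5/6 SAM and 6.65% and 6.39% in WT SAM, stood at 0.0481% and 0.0594% in tcx5/6 leaf and 0.13% and 0.128% in WT leaf.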

How the data were processed

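Messenger RNA was sequenced in 16 libraries, grouped from the labels into 8 groups of 2. The submitters' processing notes name HISAT2, edgeR and TAIR10; versions, the counting rule, strand and annotation were not stated. The deposited signal is, as the authors deposited it, read counts adjusted for library size: neither whole numbers nor divided by gene length. Counting intervals and floors cannot be given because depth is unknown. Values below 1e-06 were read as 0.

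Seedlings and SAM with leaf were normalized in separate tables and were fitted separately, with all 8 libraries of a table sharing 1 spread. limma-trend (limma 3.58.1, R 4.3.3) was run on log2(signal + 1) for genes with at least 1 signal in at least 2 libraries (25016 in seedlings, 24429 in SAM and leaf), with adjustment over all of them. With a pseudocount of 1, fold changes of low genes are understated. Promoters, exon lengths and overlaps came from TAIR10.1; exon lengths gave signal per kb. Python 3.11.15, pandas 2.3.3 and matplotlib 3.10.9 were used, and the fit was tested on simulated data.

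The 10 genes and all lists were chosen with earlier results of these data known. All 10 are named; from each pathway list up to 3 called genes per direction with the smallest adjusted p were eligible, or the 1 with the smallest p where none was called. Genes most like PORA and CHLH were ranked among genes averaging at least 100 signal in both tables. Clock, tissue and mutated genes are named where they stand beside a result. Alternatives were a median-of-ratios rescaling, no filter, a pseudocount of 0.1, the compared groups alone, a replicate block and leaving out each library.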

Additional observations from a re-analysis of the deposited data

Results flagged for a closer look

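In seedlings, the effect of the tcx5/6 mutations was tested for a difference between plants with and without the ddm1 mutation. The difference was called for PORA at -3.75 on the log2 scale (adjusted p = 3e-05), HEMA1 at -1.43 (adjusted p = 0.0026) and CHLH at -1.17 (adjusted p = 0.004). It was also called for PORB at -0.87 (adjusted p = 0.016), CHLM at -0.62 (adjusted p = 0.014), CAO at -0.59 (adjusted p = 0.02) and PORC at -0.57 (adjusted p = 0.014). For these 7 genes the tcx5/6 change was -3.89 to -0.83 in ddm1 plants, against -0.35 to -0.07 in plants without it. Among all genes tested, 14.5% were called and 9.51% were called negative. The calls for PORB, CHLM, CAO and PORC did not hold in every fit that left out 1 library. Seedling libraries with and without ddm1 were of different kinds. Any part of this that varied with tcx5/6 cannot be told apart from ddm1, while a part of equal log2 size with and without tcx5/6 cancels.

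Between tissues, the tcx5/6 effect in SAM minus that in leaf was called for PORA at 1.56 (adjusted p = 0.0024), CHLM at -0.52 (adjusted p = 0.003), CRD1 at -0.43 (adjusted p = 0.00058), CHLH at -0.42 (adjusted p = 0.041), FLU at -0.32 (adjusted p = 0.0059), PORB at -0.27 (adjusted p = 0.018) and PORC at -0.23 (adjusted p = 0.012). PORA changed by 0.32 in SAM, against -1.24 in leaf, where its signal was at most 15.29. Among all genes tested, 14.8% were called positive and 15.9% negative. The calls for CHLH and PORB did not hold in every fit that left out 1 library. SAM and leaf libraries were of different kinds. Any part of this that varied with tcx5/6 cannot be told apart from tissue, while a part of equal log2 size with and without tcx5/6 cancels.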

How the results depend on the processing

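Of 530 log2 changes of the panel recomputed without leaving out a library, 514 kept their direction and side of the threshold, 13 became called, 2 lost the call and 1 turned its sign (HEMA1 in SAM, tcx5/6 minus WT, -0.01 after rescaling, against 0.00). Fitting the compared groups alone called 6 genes of the panel between tcx5/6 and WT seedlings, against 2, and 6508 of all genes, against 2905; between tcx5/6 ddm1 and ddm1 it called 6497 of all genes, against 9832. That fit holds fewer samples. Same-numbered replicates did not deviate together (correlations of -0.08 to 0.10), so the numbers do not pair libraries; with a replicate block the counts of the panel were 2 between tcx5/6 and WT seedlings, 9 between tcx5/6 ddm1 and ddm1, 7 in the seedling interaction, 5 in leaf and 5 in SAM, as without it.

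With 1 library left out, 454 of 520 changes kept direction and call, 45 lost the call, 9 became called and 12 turned sign. The lone library was assumed to vary like the other groups. The panel's count was 0 to 0 between tcx5/6 and WT seedlings, 3 to 9 in the seedling interaction and 3 to 4 in SAM. All genes called ranged from 988 to 1313 between tcx5/6 and WT seedlings, from 1280 to 4121 in the seedling interaction (3632 with all libraries), from 4675 to 5068 in SAM (7356) and from 4738 to 8750 in the tissue interaction (7501). Signs turned for changes near 0 or at low signal. HEMA1 ranged from -0.19 to 0.05 between tcx5/6 and WT seedlings and from -0.03 to 0.03 in SAM. CHLH ranged from -0.20 to 0.10 and FLU from -0.03 to 0.04 in leaf. GUN4 ranged from -0.96 to 0.37 between ddm1 and WT, from -1.27 to 0.10 in the seedling interaction, from -0.11 to 2.24 in leaf and from -0.14 to 0.69 between tcx5/6 SAM and tcx5/6 leaf. The cause was not tested. The files do not give the sequencing depth, so counting error could not be separated from the spread between libraries.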
